A study of Mus musculus with 50 samples.

Results

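The small leucine-rich proteoglycans are a family of secreted matrix proteins, and 10 of their genes were followed here in mouse gastrocnemius, a muscle of the calf, among the 23880 genes of the deposited tables. The members were chosen by symbol as keratocan (Kera) and its relatives decorin (Dcn), biglycan (Bgn), lumican (Lum), fibromodulin (Fmod), osteoglycin (Ogn), osteomodulin (Omd), Prelp, asporin (Aspn) and chondroadherin (Chad). Kera had been picked for its difference between 28 and 8 months-old mice, so the values of those ages are given as a description, and ages were tested against each other only among mice of 18, 22, 24 and 26 months. The spread between mice was estimated in a fit over all 6 ages, and the correlations within ages used all 50 mice. The samples were 50 male C57BL/6JRj mice without genetic change, 8 at each of 8, 18, 22 and 24 months and 9 at each of 26 and 28 months, with 1 stranded mRNA library per mouse. All mice were caged singly on the same purified diet. The mice of 8 and 18 months were on it for at least 2 months before the endpoint, whereas those of 22 to 28 months received it from about 18 months of age on, so between these sets age and diet history cannot be told apart. Animals with overt illness or tumors had been left out by the study, which restricts the oldest groups to mice free of both.

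Proteins of this family share a core of leucine-rich repeats that binds the surface of collagen fibrils and thereby sets how thick and how closely packed the fibrils become. Most members carry sugar chains: decorin and biglycan carry chondroitin or dermatan sulfate, while keratocan, lumican, fibromodulin and osteomodulin carry keratan sulfate. In skeletal muscle they belong to the connective tissue around fibres and to the tendon at the muscle's ends, where fibroblasts and tendon cells make them.

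The family is divided into classes by the spacing of 4 cysteines that stand ahead of the repeats, and the coding bases of that cluster are shown for every member because the results are ordered by these classes. Bases are from GENCODE vM21 transcripts on GRCm38, 5′ to 3′ on the strand of the gene, each within 1 coding exon, and capitals mark the cysteine codons.
Kera, chr10:97608907-97608957, plus strand: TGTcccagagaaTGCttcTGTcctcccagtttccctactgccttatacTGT
Lum, chr10:97568353-97568403, plus strand: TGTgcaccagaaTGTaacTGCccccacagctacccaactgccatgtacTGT
Fmod, chr1:134040449-134040499, plus strand: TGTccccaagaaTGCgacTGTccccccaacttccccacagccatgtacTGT
Prelp, chr1:133915151-133915201, minus strand: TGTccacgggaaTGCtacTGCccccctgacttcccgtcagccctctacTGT
Omd, chr13:49589659-49589709, plus strand: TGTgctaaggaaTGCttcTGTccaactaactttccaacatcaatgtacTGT
Dcn, chr10:97483507-97483548, plus strand: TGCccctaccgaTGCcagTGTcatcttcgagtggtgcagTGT
Bgn, chrX:73490979-73491020, plus strand: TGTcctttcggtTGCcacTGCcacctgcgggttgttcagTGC
Aspn, chr13:49551865-49551906, plus strand: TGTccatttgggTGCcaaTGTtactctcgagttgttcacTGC
Ogn, chr13:49615566-49615604, plus strand: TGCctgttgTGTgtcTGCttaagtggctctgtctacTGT
Chad, chr11:94565161-94565208, plus strand: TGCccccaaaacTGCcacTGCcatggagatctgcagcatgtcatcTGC
In Kera, Lum, Fmod, Prelp and Omd the 4 cysteine codons were separated by 3, 1 and 9 other codons, which is the pattern of class II. Dcn, Bgn and Aspn had 3, 1 and 6 codons in between, the pattern of class I. Ogn stood alone with 2, 1 and 6 codons, and Chad with 3, 1 and 8.

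Most members lie beside one another in the genome. On chromosome 10, Dcn (97479609 to 97518143), Lum (97565128 to 97572703) and Kera (97606879 to 97613692) follow each other on the plus strand with no other protein-coding gene in between. On chromosome 13 the order is Aspn (49544443 to 49567565), Omd (49582462 to 49592822) and Ogn (49608046 to 49624501), and on chromosome 1 Prelp (133910304 to 133921414) adjoins Fmod (134037254 to 134048277). Chad (chromosome 11, 94565047 to 94569127) and Bgn (chromosome X, 73483602 to 73495933) have no member as a neighbour.

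Levels between genes were compared in TPM, which the authors scaled by transcript length and library size. Decorin, which also binds growth factors such as TGF-beta, was by far the most abundant, with a mean of 618 TPM over the 50 mice, and it exceeded the next gene in 50 of 50 mice. Fmod followed with 90.1 TPM, Bgn with 77.0, Ogn with 55.0, Prelp with 26.4, Aspn with 23.5, Lum with 19.6, Chad with 11.5, Kera with 4.82 and Omd with 2.93. The order of neighbours was not the same in every mouse: Fmod exceeded Bgn in 37 mice, Prelp exceeded Aspn in 34, Aspn exceeded Lum in 39 and Kera exceeded Omd in 33 of 50. In the count table Kera had a mean of 135 counts per mouse at 18 months and 42.4 at 26 months. Of the family's summed TPM, Dcn made up 64.8% ± 3.49 (SD, n = 8) at 18 months and 69.6% ± 3.41 (n = 9) at 26 months, while Kera made up 0.628% ± 0.164 and 0.250% ± 0.115.

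**Figure D1:**
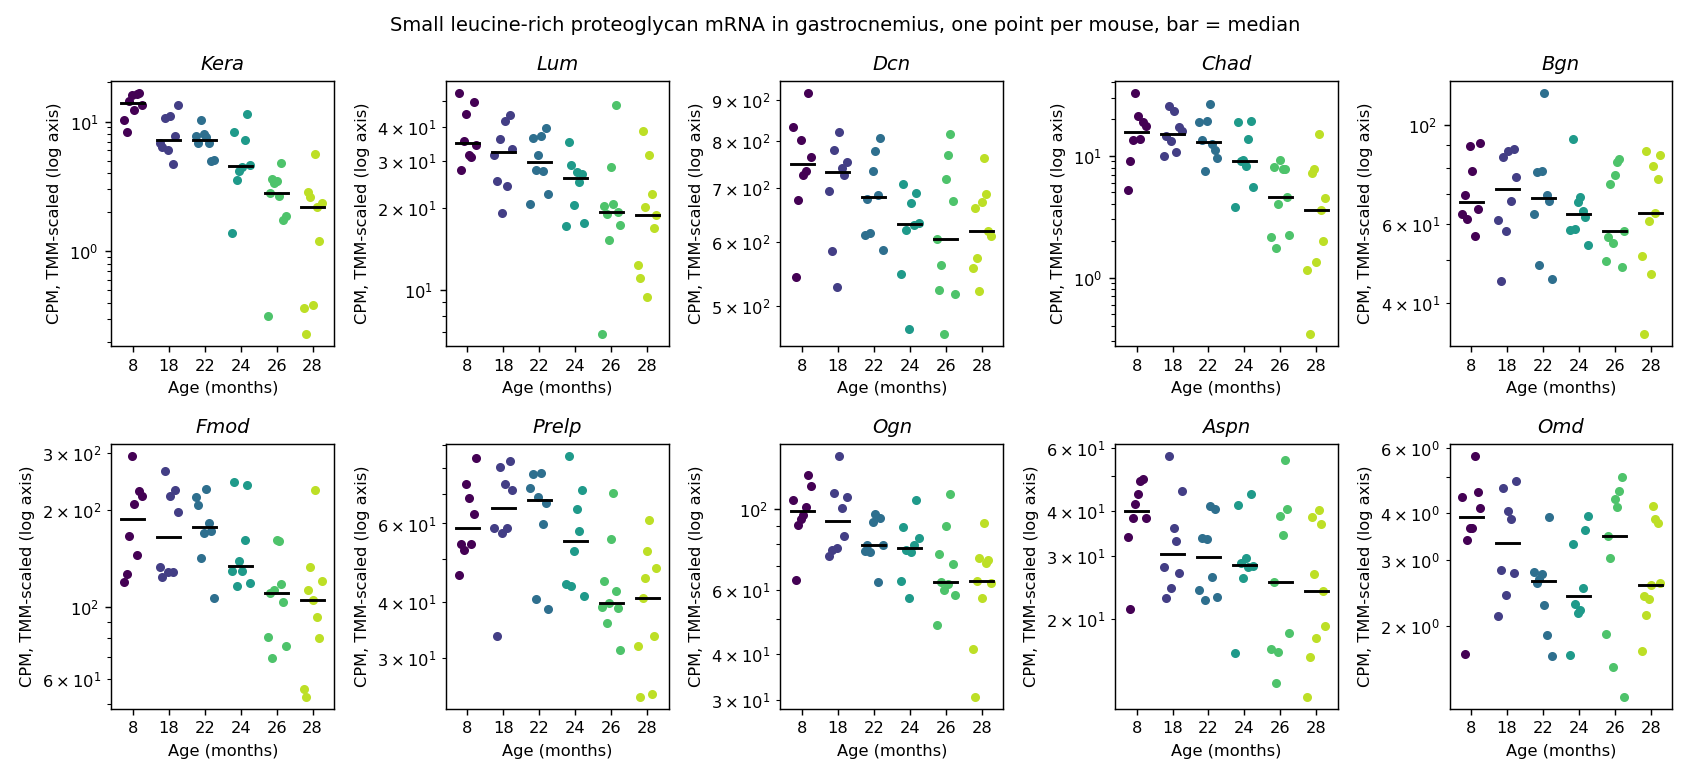
Library-scaled counts (CPM, TMM-scaled, log axis with its own range in each panel) of the 10 genes against age in months, 1 point per mouse and a bar at the median of each age. Kera at 26 months reaches from 0.317 to 4.80 CPM, against 4.70 to 13.4 at 18 months, whereas the points of Bgn and Omd at these ages lie over one another.

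Between 26 and 18 months Kera and Chad fell, and no member rose. Values per mouse are given in CPM, the count of a gene relative to its library's total, after TMM scaling. Keratocan, first known from the cornea, measured 4.70 CPM in the lowest, 7.23 in the median and 13.4 in the highest mouse of 18 months. At 26 months the lowest mouse had 0.317, the median 2.79 and the highest 4.80 CPM. Of the 9 older mice, 8 lay below every mouse of 18 months, and the ninth lay just above the lowest of them. The log2 fold change of Kera was -1.57 ± 0.34 (SE, 95% interval -2.25 to -0.88, edgeR quasi-likelihood test, adjusted p = 0.0015).

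Chondroadherin, a matrix protein known from cartilage and tendon that binds collagen and integrins, ranged from 9.99 over a median of 15.2 to 25.7 CPM at 18 months. At 26 months it ranged from 1.76 over 4.60 to 9.20 CPM. All 9 mice of 26 months were thus below all 8 of 18 months, a separation downwards that 0.797% of the 12541 genes compared in this way showed. The log2 fold change of Chad was -1.59 ± 0.39 (SE, 95% interval -2.38 to -0.81, edgeR adjusted p = 0.0035). Without replicate 1 of 26 months it was -1.49, with an adjusted p of 0.012 by edgeR, which no longer passed 0.01.

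Counted over the family, 2 of 10 members passed an FDR of 0.01 and both fell. Of all 12586 genes tested, 4.68% were lower, 5.39% were higher and 10.1% changed in either direction. This share rested on single mice: it was 3.87% without replicate 1 of 26 months, where 1 member was called, and 5.01% without replicate 8 of that age, where 2 were, and 6.17% and 6.60% without replicates 5 and 7 of 18 months, again with 2. All 10 members had a negative change, against 49.5% of all genes, and their median log2 fold change was -0.45, against 0.0026 over all genes. The sign of Omd was not stable, since it turned positive in 5 of 17 fits that left out a mouse, and its median CPM was higher at 26 months. In a whole muscle, fewer cells of a type and less RNA per cell cannot be told apart.

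The other members with the class II spacing did not pass. Fmod, which binds collagen I and guides its cross-linking, ranged from 124 over 165 to 263 CPM at 18 months and from 69.7 over 111 to 161 CPM at 26 months, and 7 of the 9 older mice lay below every younger one. Its log2 fold change was -0.64 ± 0.21 (SE, edgeR adjusted p = 0.023). In a fit on the 33 mice of 18 to 26 months alone, Fmod passed with -0.64 and an edgeR adjusted p of 0.0068. Prelp, which anchors basement membranes to connective tissue, ranged from 33.5 over 65.0 to 82.9 and from 31.2 over 39.8 to 70.4 CPM, a log2 fold change of -0.49 ± 0.16 with an edgeR adjusted p of 0.024. For both genes 8 or 9 of the older mice lay below the median of the younger, yet the ranges overlapped. Lum, a regulator of fibril diameter, ranged from 19.2 over 32.4 to 44.2 and from 6.86 over 19.3 to 48.0 CPM, and its change was -0.53 ± 0.22 (SE, edgeR adjusted p = 0.069). The highest Lum value of both ages belonged to a mouse of 26 months, and without that mouse (replicate 7) the change was -0.74 with an edgeR adjusted p of 0.0090. Without replicate 6 of 26 months, the change of Prelp was -0.59 with an edgeR adjusted p of 0.0095.

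Omd, the last member of this class and known from bone, ranged from 2.13 over 3.34 to 4.88 CPM at 18 months and from 1.29 over 3.49 to 4.998 CPM at 26 months. The older mice thus spanned the whole range of the younger, and the log2 fold change of -0.036 (95% interval -0.48 to 0.40) had an edgeR adjusted p of 0.92.

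The members with the class I spacing also stayed short of the threshold. Dcn ranged from 529 over 734 to 823 CPM at 18 months and from 462 over 607 to 818 CPM at 26 months. Its change was -0.12 (95% interval -0.29 to 0.058, edgeR adjusted p = 0.32), so that a fall of more than 0.29 on the log2 scale lay outside the interval. Biglycan, the closest relative of decorin and a ligand of Toll-like receptors, ranged from 44.8 over 72.1 to 88.5 and from 48.3 over 57.9 to 84.0 CPM, with a change of -0.081 (95% interval -0.38 to 0.21, edgeR adjusted p = 0.71). Aspn, which carries a run of aspartates and competes with decorin for collagen, ranged from 22.9 over 30.4 to 57.1 and from 13.3 over 25.4 to 55.7 CPM, with a change of -0.21 and an edgeR adjusted p of 0.50. Mice of both ages were mixed in all 3 genes.

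Ogn, also called mimecan, ranged from 74.6 over 92.5 to 140 CPM at 18 months and from 48.0 over 63.1 to 110 CPM at 26 months. Although 6 of the 9 older mice lay below every younger mouse, its change of -0.40 ± 0.14 (SE) had an edgeR adjusted p of 0.036 and did not pass.

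**Figure D2:**
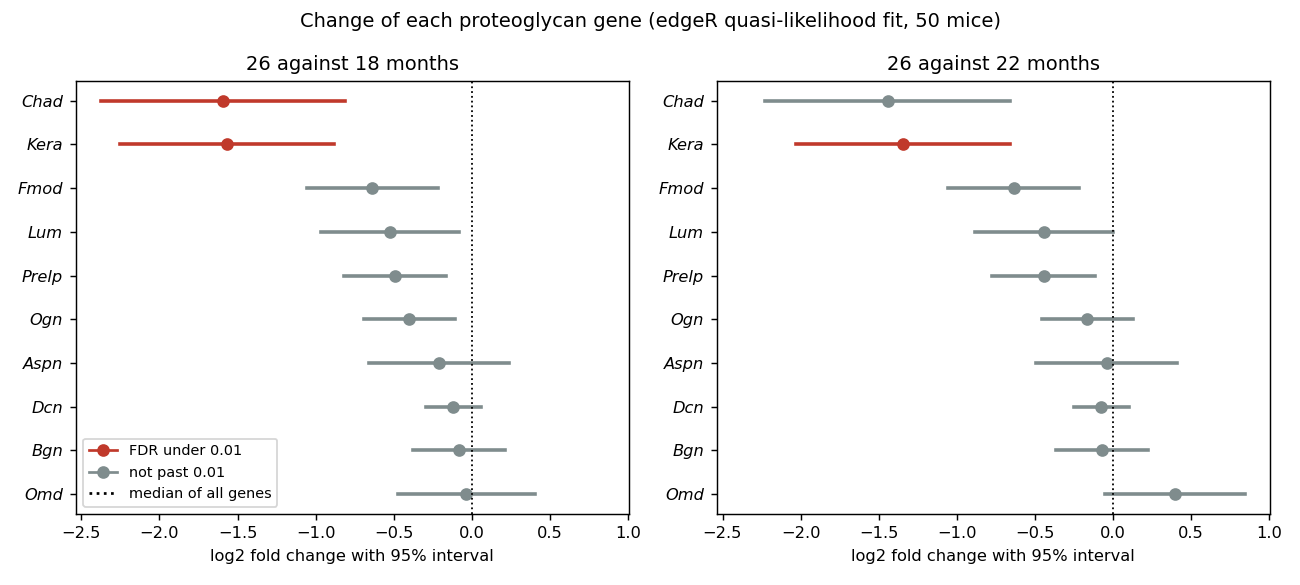
Log2 fold change (points) with 95% interval (lines) of the 10 genes between 26 and 18 months (left) and between 26 and 22 months (right), red where the FDR is under 0.01, with the median of all genes as a dotted line. On the left Chad (-1.59) and Kera (-1.57) stand apart in red, while on the right Kera alone is red at -1.35. Both panels use the same mice of 26 months.

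The fall of Kera was then set against its neighbours on the chromosome. In each mouse the ratio of Kera to Lum and of Kera to Dcn was taken from CPM + 0.5. The log2 ratio of Kera to Lum was -1.90 ± 0.377 (SD, n = 8) at 18 months and -2.78 ± 0.408 (n = 9) at 26 months, and 7 of the 9 older mice lay below every younger one. The difference of -0.88 had an adjusted p of 0.00082 (two-sided exact permutation test, 2 ratios). The log2 ratio of Kera to Dcn was -6.38 ± 0.404 (n = 8) and -7.73 ± 0.795 (n = 9), again with 7 of 9 mice below, and the difference of -1.36 had an adjusted p of 0.00049 by the same exact permutation test. With TPM + 0.1 in place of CPM + 0.5 the differences were -1.05 and -1.56. Kera thus fell by more than either gene.

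**Figure D3:**
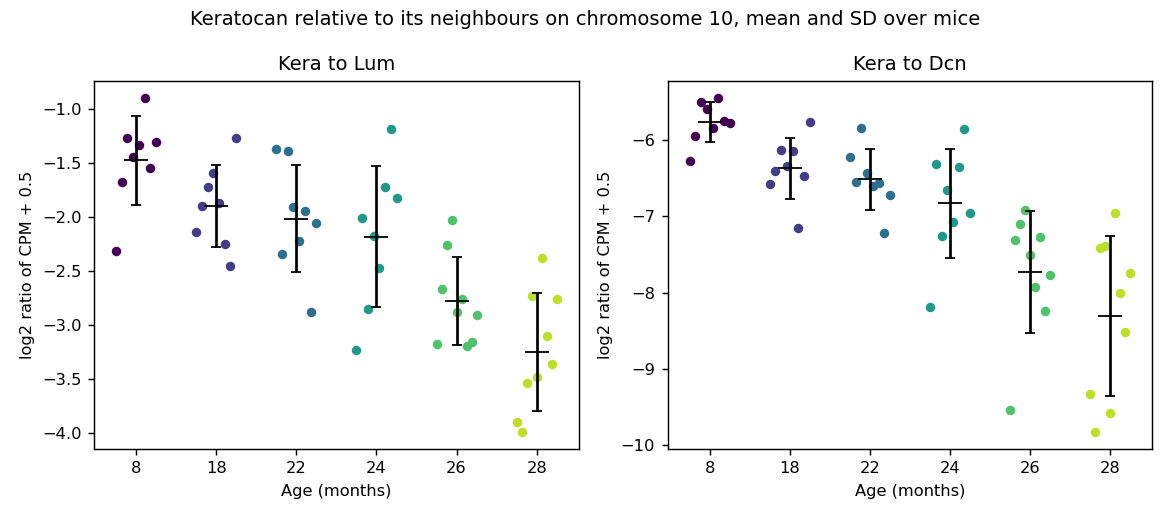
Log2 ratio of Kera to Lum (left) and of Kera to Dcn (right) in CPM + 0.5 against age in months, 1 point per mouse with the mean and SD. The mean of Kera to Lum is -1.90 at 18 and -2.78 at 26 months, and that of Kera to Dcn is -6.38 and -7.73.

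Steps between consecutive ages addressed when the members moved. Between 22 and 18 months, 0 of 10 members passed, with a range of log2 fold changes from -0.43 (Omd) to 0.00064 (Fmod). By the edgeR test 0 members had an unadjusted p under 0.05, against 522 of all genes, and 1 gene (0.00795%) passed the FDR. DESeq2 called 2 genes and 0 members. Kera itself had a median of 7.15 CPM at 22 months, next to 7.23 at 18 months. Between 24 and 22 months 0 members and 0 genes (0.0%) passed by edgeR or any of the other tools, while 478 genes and 0 members had an unadjusted p under 0.05. At 24 months Kera spread from 1.39 over 4.55 to 11.5 CPM, wider than at 22 months (4.92 to 10.3 CPM), and 5 of the 8 mice lay below every mouse of 22 months.

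Between 26 and 24 months 0 members and 0 genes (0.0%) passed the FDR with edgeR, although 2202 genes had an unadjusted p under 0.05. Among these were 4 members: Kera with a log2 fold change of -1.02 ± 0.35 (SE, edgeR adjusted p = 0.12), Chad with -1.01 ± 0.39 (edgeR adjusted p = 0.16), Fmod with -0.49 and Prelp with -0.33. DESeq2 called 14 genes and the likelihood ratio test 4, with 0 members in either.

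Mice of 22 and 26 months had started the diet at about the same age. Those of 26 months had been on it for longer, so age and time on the diet cannot be told apart. These groups gave 1 of 10 members past the FDR, where 0.985% of all genes were lower, 1.67% higher and 2.65% changed in either direction. This was Kera, with -1.35 ± 0.34 (SE, edgeR adjusted p = 0.0096). Its 9 mice of 26 months (0.317 to 4.80 CPM) all lay below the 8 of 22 months (4.92 to 10.3 CPM), a separation downwards shown by 0.415% of genes. Chad changed by -1.44 ± 0.39 (SE) with an edgeR adjusted p of 0.013. Fmod changed by -0.64 with an edgeR adjusted p of 0.036, Prelp by -0.44 with one of 0.058 and Lum by -0.44 with one of 0.16. Omd alone had a positive value, 0.39, with an edgeR adjusted p of 0.22. The comparison shares its mice of 26 months with that against 18 months. The call of Kera rested on the settings: with no filter on low genes and with limma on log2(TPM + 0.1) 0 members were called, and in a fit on the mice of both ages alone, Kera and Chad were called.

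At the ages that led to the choice of Kera, values are described only. At 8 months Kera ranged from 8.31 over a median of 14.0 to 16.6 CPM, and at 28 months from 0.229 over 2.19 to 5.64 CPM. All 9 mice of 28 months lay below all 8 of 8 months, as in 2.75% of genes, and the fitted log2 fold change was -2.72. Chad had -1.74, Lum -0.89, Fmod -0.74, Ogn -0.61, Aspn -0.58, Prelp -0.56, Omd -0.41, Dcn -0.20 and Bgn -0.091. Between 18 and 8 months the change of Kera was -0.69 and that of Chad 0.0017. Between 28 and 26 months it was -0.46 for Kera and -0.15 for Chad. By the median of each age, Kera, Lum, Aspn and Chad stood in the order of age from 8 down to 28 months, while Bgn was highest at 18 months and Prelp at 22 months. The spread of Kera and Chad between mice did not rise at every step of age, but it was highest at 28 months. From 8 to 28 months the coefficient of variation of Chad was 50.9%, 34.6%, 41.9%, 52.7%, 55.5% and 97.3%, and that of Kera 22.5%, 36.1%, 24.0%, 56.2%, 47.5% and 86.6%. For Dcn it lay between 11.7% and 19.6%. In 3 mice of 28 months Kera lay between 0.229 and 0.385 CPM, and in 1 mouse of that age, replicate 6, it lay at 5.64 CPM.

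Mice of one age were then compared with each other, after the mean of each age had been taken away, to see which members vary together. All 45 pairs of members correlated positively, with Spearman's rho from 0.271 to 0.868 and a median of 0.609, and 43 pairs passed an adjusted p of 0.05 (100000 permutations within ages, 45 pairs, 50 mice). All values of a mouse share its library and scaling. The highest were Fmod with Prelp (rho 0.868, Pearson's r 0.838, adjusted permutation p = 2.65e-05 for rho and 2.14e-05 for r), which are neighbours in the genome, and Fmod with Chad (rho 0.844, r 0.870, same adjusted permutation p). Without the 2 mice farthest from the median of Fmod, r was 0.814 and 0.832.

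Omd, Aspn and Ogn, neighbours on chromosome 13, also varied together: rho was 0.779 between Ogn and Aspn (r 0.761, without 2 mice 0.747), 0.735 between Ogn and Omd (r 0.694, without 2 mice 0.736) and 0.725 between Omd and Aspn (r 0.738, without 2 mice 0.720), each with an adjusted permutation p of 2.65e-05 for rho and 2.14e-05 for r. Pairs that are not neighbours reached the same height, with a rho of 0.739 between Aspn and Chad (r 0.721, without 2 mice 0.710), 0.727 between Lum and Aspn (r 0.714, without 2 mice 0.674) and 0.700 between Dcn and Aspn (r 0.683, without 2 mice 0.639), each with the same adjusted permutation p. Kera went most closely with Chad (rho 0.715, r 0.763, without 2 mice 0.757, same adjusted permutation p). Its rho with its neighbour Lum was 0.609 (r 0.718, without 2 mice 0.652, adjusted permutation p = 7.83e-05 for rho and 2.14e-05 for r). With Dcn, the next gene on that chromosome, rho was 0.284 (r 0.276, without 2 mice 0.269, adjusted permutation p = 0.056 for rho and 0.063 for r), and this pair did not pass. The other pair that did not pass was Bgn with Omd (rho 0.271, r 0.267, without 2 mice 0.300, adjusted permutation p = 0.074 for rho and 0.064 for r). These values depended on the oldest mice. Without the mice of 28 months, the rho of Kera was 0.350 with Dcn, 0.459 with Lum, 0.597 with Chad and 0.596 with Fmod. Of the 45 pairs 44 then passed, and the lowest rho was 0.237, that of Bgn with Omd. The smallest raw p that these permutations can give is 1e-05, which the highest pairs reached.

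**Figure D4:**
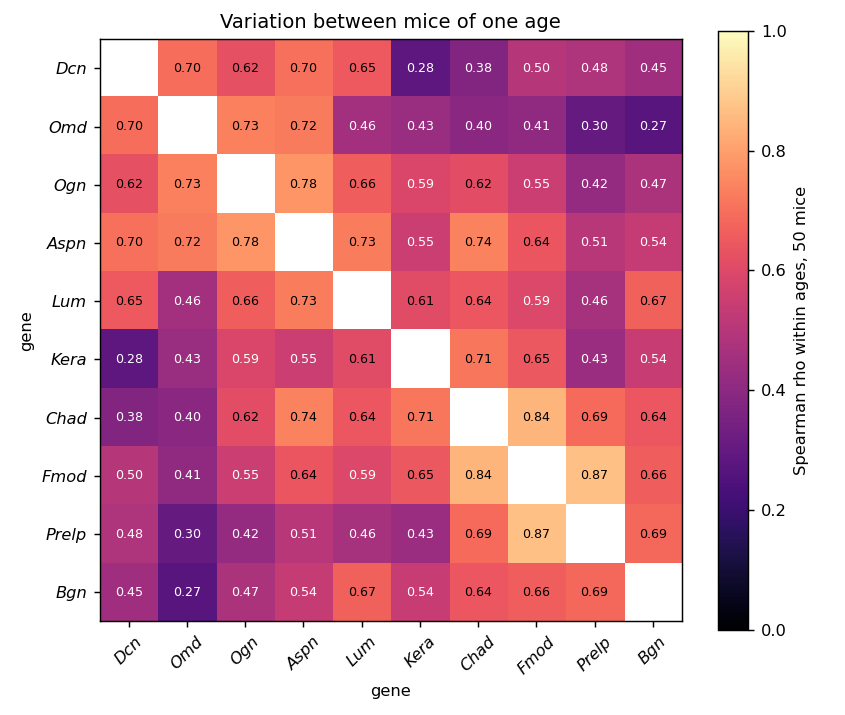
Spearman's rho between each pair of the 10 genes over 50 mice after removal of the mean of each age, with the value in each cell and the scale from 0 to 1. Fmod, Prelp and Chad form the lightest block (Fmod with Prelp 0.868), while Kera with Dcn (0.284) and Bgn with Omd (0.271) are the darkest cells.

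Over 9167 genes with at least 5 CPM on average, the genes most like Kera by the same within-age rho were Col1a2 (0.731), Mfap4 (0.718), Chad (0.715), Col1a1 (0.702) and Tnmd (0.699), against a median of 0.0864 for all genes. Col1a1 and Col1a2 encode the chains of collagen I, and Tnmd encodes tenomodulin, a membrane protein of tendon cells. Those most like Dcn were Selenop (0.784), Itgbl1 (0.778), Lhfp (0.754), Camk2n1 (0.748) and Fbln5 (0.732), against a median of 0.191. The lists of Kera and Dcn had no gene in common, but lists of 5 genes are too short to compare the patterns. Tnmd, from the list of Kera, still had a rho of 0.504 with Dcn.

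The rest of the pathway was read in the same comparison of 26 with 18 months, where 4.68% of all genes fell and 5.39% rose. Of 7 other genes of the family, Ecm2, Podn and Tsku reached the filter and 0 passed, with log2 fold changes of -0.50 (edgeR adjusted p = 0.013), -0.39 and -0.19. Epyc, the neighbour of Kera on its other side, had at most 0.122 TPM in any mouse, and Optc at most 0.520. Among collagen fibril partners, 10 of 17 tested genes fell and 1 rose, with a median of -0.74. Col3a1, the chain of collagen III, had the largest fall with -1.50 ± 0.30 (SE, edgeR adjusted p = 0.00073), and the gene that rose was the collagen cross-linking enzyme Lox with 0.83 (edgeR adjusted p = 0.0080). Of the genes for the linker and the chondroitin and dermatan sulfate chains, 2 of 19 fell, Fam20b, the xylose kinase of the linker, with -0.47 ± 0.09 (SE, edgeR adjusted p = 0.00072) and the sulfotransferase Chst12 with -0.45, and the median was -0.17. Of the genes for keratan sulfate chains, which Kera, Lum and Fmod carry, 0 of 9 passed by edgeR in either direction and the median was 0.063. The lowest value belonged to the sialyltransferase St3gal1 (-0.39, edgeR adjusted p = 0.018) and the highest to the galactosyltransferase B4galt1 (0.44, edgeR adjusted p = 0.028).

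Of the proteases that cut members of the family, 1 of 8 rose, Tll1 with 1.11 ± 0.28 (SE, edgeR adjusted p = 0.0044), and 1 fell, its relative Bmp1, which trims the ends of biglycan and of procollagen, with -0.64 (edgeR adjusted p = 0.0014). Tll1 was low, with 0.565 ± 0.139 CPM (SD, n = 8) at 18 months and 1.20 ± 0.514 CPM (n = 9) at 26 months, so that it reached the filter of 1 CPM through ages at which it was higher. Of 18 signalling partners of decorin and biglycan, 1 rose, the TGF-beta receptor Tgfbr1 with 0.47 ± 0.12 (SE, edgeR adjusted p = 0.0041), and 0 fell. Over all genes 5.39% rose and 4.68% fell. Chst12, St3gal1, B4galt1, Bmp1, Lox, Epyc and Optc stand beside the genes of the naming rule and were named after their values were seen. The same holds for the markers Pdgfra, Col15a1, Ly6a, Gsn, Smoc2, Scx, Mkx, Egr1, Comp, Col11a1, Acan, Col2a1 and Acta1.

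**Figure D5:**
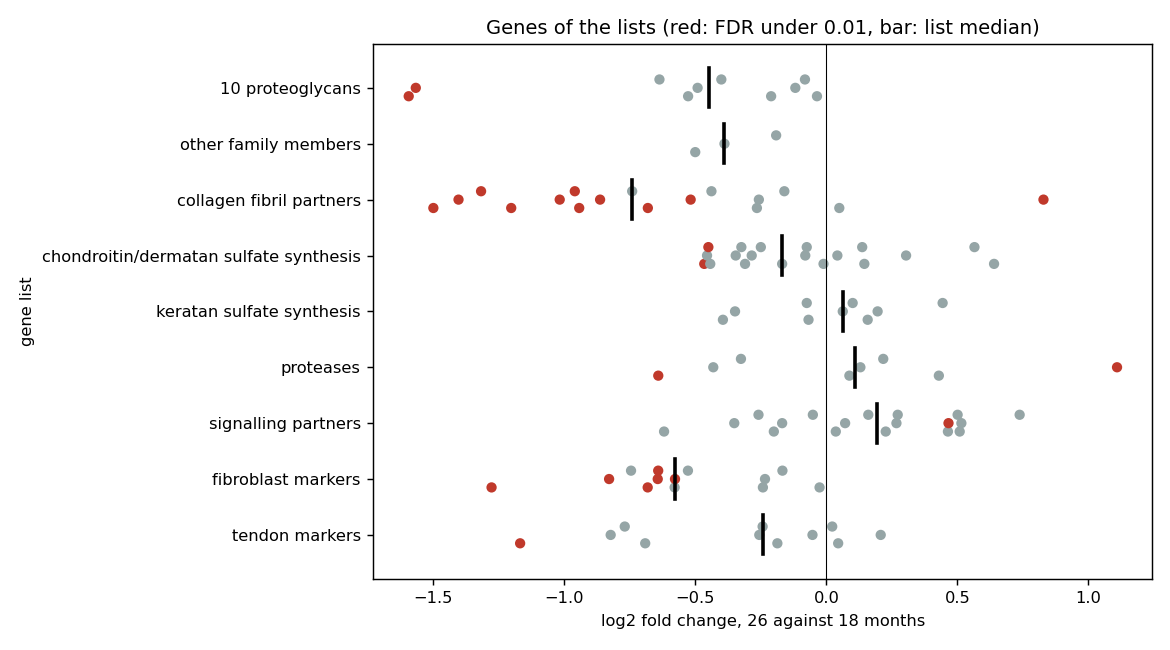
Log2 fold change between 26 and 18 months of each tested gene (points, red where the FDR is under 0.01) by list, with the list median as a bar. Collagen fibril partners hold 10 red points left of 0 and 1 right of it (median -0.74), the 10 proteoglycans hold 2 (median -0.45), and keratan sulfate synthesis holds 0 (median 0.063).

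Markers of fibroblasts and tendon cells were read in the same comparison, in which 4.68% of all genes fell and 5.39% rose. Of the fibroblast markers 6 of 13 fell, and the median log2 fold change was -0.58. Their summed level was 1435 to 2197 TPM (median 1794) at 18 months and 936 to 1558 TPM (median 1194) at 26 months. Gsn weighed most in this sum, with a mean of 1550 CPM at 18 months and 1010 CPM at 26 months. Smoc2, the next marker by CPM, had means of 171 and 139 CPM. All 13 markers had a negative change, from Col15a1 with -1.28 (edgeR adjusted p = 0.00036) to Ly6a with -0.026. Pdgfra, which defines fibro-adipogenic cells, changed by -0.23 (edgeR adjusted p = 0.12). Of the tendon markers 1 of 11 fell, Tnmd with -1.17 ± 0.32 (SE, edgeR adjusted p = 0.0075), the median was -0.24, and the summed level was 93.5 to 201 TPM (median 143.5) at 18 months and 74.0 to 199 TPM (median 110) at 26 months. Of the 11 tendon markers 8 had a negative change, among them Col11a1 with -0.82 (edgeR adjusted p = 0.028) and Comp with -0.77 (edgeR adjusted p = 0.038). The tendon transcription factors Scx and Mkx changed by 0.045 and 0.023, and Egr1 by 0.21. Within ages the rho with Tnmd was 0.881 for Chad and 0.699 for Kera. It was also 0.834 for Aspn, 0.777 for Fmod and 0.504 for Dcn, which did not pass in this comparison. With the other tendon markers of at least 5 CPM on average, rho ran from 0.176 to 0.619 for Kera and from 0.235 to 0.910 for Chad. With the fibroblast markers of that level it ran from 0.0879 to 0.578 for Kera and from 0.262 to 0.737 for Chad. The part of fibroblast and tendon content in the fall of Kera and Chad was not tested. The defining cartilage genes were near 0 in all mice, with at most 0.217 TPM of Acan and 0.315 TPM of Col2a1, and 0 of 3 tested cartilage and bone markers passed. Adipocyte markers fell in 3 of 6 cases (median -1.11, summed level 388 to 632 TPM at 18 and 281 to 533 TPM at 26 months). For macrophages 0 of 7 passed (median 0.28) and for Schwann cells 0 of 6 (median -0.26). All 7 macrophage markers nevertheless had a positive change, and all 6 Schwann cell markers a negative one. Smooth muscle and pericytes had 0 of 8 (median -0.029), endothelial cells 0 of 6 (median -0.13) and muscle fibres 0 of 8 (median 0.077). Muscle fibre genes were high in every mouse, with at least 28200 TPM of the skeletal actin gene Acta1.

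Total counts per mouse ranged from 13607229 to 21267375 over the 50 libraries, with medians per age between 15332387 (24 months) and 18409468 (8 months). All 10 members passed the filter on low values.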

How the data were processed

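Reads of 101 bases from both ends of stranded mRNA libraries were trimmed by the authors with Cutadapt 1.9.1 and assigned with kallisto 0.43.1 to protein-coding Ensembl transcripts on GRCm38. The authors divided a read that fits several transcripts evenly among them and summed transcripts per gene, which gave the deposited counts, without normalization. The deposited TPM values were made by the authors from the same counts, scaled by transcript length and library size. Ages and replicates were taken from the sample labels. Nothing in the labels describes further batches.

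Counts were tested with the edgeR 4.0.16 quasi-likelihood test in R 4.3.3 (TMM factors, 1 fit over 50 mice and 6 ages, at least 1 CPM in at least 8 mice, 12586 genes, Benjamini-Hochberg adjustment, FDR 0.01). Each mouse is a separate animal, and the closest pair of mice of one age differed by 2.74 times the counting variance, so every mouse was counted as its own replicate. Ratios used CPM + 0.5 and two-sided exact permutation tests, and correlations used 100000 permutations within ages (Python 3.11.15, scipy 1.17.1), at a threshold of 0.05. Procedures were tested on simulated data.

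The members and all lists were chosen with earlier results of these data known. The named genes are the members, for each pathway list its most changed gene past the FDR, the tested other family members, and the 5 genes most like Kera and most like Dcn. The 6 pathway lists (with the members) and 9 marker lists came from general knowledge. Alternatives were upper-quartile factors, DESeq2 1.42.0, the likelihood ratio test, no filter or one of 5 CPM, fits on fewer mice, limma 3.58.1 on log2 TPM, a replicate block, and leaving out each of the 17 mice of 18 and 26 months.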

Additional observations from a re-analysis of the deposited data

Results flagged for a closer look

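In 60 sets of values (10 members at 6 ages), a highest or lowest mouse far from the others was looked for, and by chance about 1 set in 20 shows one. At 28 months, replicate 6 stood apart with 5.64 CPM of Kera, where the next mouse had 2.86, and with 230 CPM of Fmod, where the next had 133. Bgn reached 118 CPM in replicate 5 of 22 months, with 78.9 CPM in the next mouse. It reached 92.8 CPM in replicate 2 of 24 months, with 69.0 CPM in the next.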

How the results depend on the processing

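Between 26 and 18 months the count of called members was 2 to 3 over the 10 alternatives that kept all mice of both ages and 1 to 3 when a mouse was left out. Kera (-1.67 to -1.25) and Chad (-1.72 to -1.52) kept their calls in all 10 alternatives. Fmod was called besides in a fit on the 33 mice of 4 ages (-0.64, adjusted p = 0.0068 by edgeR). The filter of 5 CPM removed Omd. Of the 17 fits without a mouse, 1 lost Chad (without replicate 1 of 26 months), and Omd turned to 0.022 and 0.035 (without replicates 3 and 8 of 18 months) and to 0.033, 0.050 and 0.070 (without replicates 1, 4 and 9 of 26 months), in a range of -0.15 to 0.070. Between 26 and 22 months 1 member was called, 0 with no filter and with limma on log2(TPM + 0.1), and 2 with the 33 mice, with both ages alone, with DESeq2 and with the likelihood ratio test. The cause was not tested. The other steps gave 0 members in every alternative. Genes called between 26 and 18 months numbered 1268, against 2003 with the 33 mice, 762 with both ages alone, 847 and 836 with limma (pseudocounts 1 and 0.1) and 487 to 1526 without a mouse, with 487 and 630 without replicates 1 and 8 of 26 months and 776 and 831 without replicates 5 and 7 of 18 months. Between 26 and 22 months they numbered 334, against 971, 712 (DESeq2), 679 (likelihood ratio test), 179 and 162 (limma) and 223 (no filter). With the replicate block 2 members were called between 26 and 18 months, and no call on a member changed in any comparison. Mice of the same number correlated with a median of 0.0608 over 121 pairs (-0.584 to 0.406). For 920 other pairs the median was -0.0072 (-0.6 to 0.612). Whether the numbers pair mice was not tested. The log2 ratio of Kera to Lum was -0.97 to -0.79 without a mouse and -1.05 in TPM, that of Kera to Dcn -1.47 to -1.13 and -1.56, and 43 to 44 pairs of members passed. Kera had as few as 6 counts in a mouse of 26 months and 4 in one of 28 months, so counting error is largest in its lowest values.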
